A study of Mus musculus with 4 samples.

Results

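The genes described here encode ATP-dependent chromatin remodelers and proteins that share their name stems. They were taken from the deposited count table by symbol, as all rows beginning with Smarc, Arid1 to Arid5, Ino80 or Actl6 and the genes Chd1 to Chd9. Pseudogene and opposite-strand symbols (Smarca5-ps, Smarce1-ps1 and Ino80dos) were left out. This gave 39 of 55401 genes, of which 14 belong to SWI/SNF, 2 to ISWI, 9 to CHD and 5 to INO80. The other 9 (Smarcad1, Smarcal1 and the Arid3, Arid4 and Arid5 genes) match the symbols without being subunits of these 4 families. They include the ATPase Smarcad1 but also DNA binding factors such as Arid3b, so the name remodeler does not cover all 39.

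Chromatin remodelers use ATP to slide, eject or exchange nucleosomes. Each family is built round an ATPase of the SNF2 type, which noncatalytic subunits guide to its targets. In embryonic stem cells the SWI/SNF complex (BAF) is known to contain Smarca4, Smarcc1 and Actl6a, in place of Smarca2 and Actl6b, and Smarca4, Chd1, Chd4 and Ino80 are known to act in self-renewal or in its exit. The U1 snRNP recognises 5′ splice sites of transcripts of RNA polymerase II and protects long ones from premature cleavage.

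The RNA was labelled with 4sU, a uridine analogue taken up into transcripts as they are made, and came from mouse 129/Ola embryonic stem cells. In all of them SNRNP70, a protein subunit of the U1 snRNP, carried a degron tag through which auxin triggers its breakdown. The cells grew in serum medium with leukemia inhibitory factor. The cells compared had been given the auxin IAA for 5 h (2 libraries, labelled by genotype as degraded SNRNP70) or for 0 h (2 libraries, labelled WT although their titles name the same degron line). The study set this loss of SNRNP70 beside that of ZFP207, which is not analysed here. Its text calls the replicates independent but does not say that they were separate cultures or whether the line is 1 clone, so p-values measure the spread between these libraries, which may be technical.

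Totals ran from 7174772 to 17752887 counts a library, and 3 counts corresponded to 0.154 to 0.382 CPM (CPM are counts relative to the library total after TMM scaling, which corrects for library composition). Of 10 embryonic stem cell markers all were measured, with summed levels of 4021 and 3991 CPM at 5 h and 3556 and 3368 CPM at 0 h. They did not move together. By the test described below, Sox2, Klf4, Utf1, Fgf4 and Pou5f1 rose, Nanog and Tdgf1 fell, and Esrrb, Zfp42 and Dppa5a did not pass. The 7 markers of fibroblast feeder cells summed to 13.1 and 12.5 CPM at 5 h and 10.1 and 9.16 CPM at 0 h, and 4 of them (Col3a1, Dcn, Lum and Postn) were at 0 in every library. Endoderm, neural and mesoderm lists summed to at most 57.4 CPM in any library. Labelled Snrnp70 RNA had 451 and 475 CPM at 5 h and 249 and 243 CPM at 0 h. Because the degron acts on the protein, the RNA level is no check of the labelling.

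Promoters are shown first because members of 1 complex moved in opposite directions. Shown are, for each direction, the pair of members with the lowest adjusted p among those with 1 start in the RefSeq promoter table (GRCm38.p6, the build to which mm10 corresponds). Smarcb1, a core subunit of SWI/SNF, and Arid4b, of a Sin3 deacetylase complex, were higher at 5 h. Smarcc1, a scaffold subunit of SWI/SNF, and Chd6, an ATPase, were lower. Each run covers 250 bases before to 50 after the start, at chr10:75921565-75921864 (minus strand) for Smarcb1, chr13:14063534-14063833 (plus) for Arid4b, chr9:110131774-110132073 (plus) for Smarcc1 and chr2:161109037-161109336 (minus) for Chd6. Capitals mark the GC box GGGCGG and the CCAAT box CCAAT on either strand.
Smarcb1: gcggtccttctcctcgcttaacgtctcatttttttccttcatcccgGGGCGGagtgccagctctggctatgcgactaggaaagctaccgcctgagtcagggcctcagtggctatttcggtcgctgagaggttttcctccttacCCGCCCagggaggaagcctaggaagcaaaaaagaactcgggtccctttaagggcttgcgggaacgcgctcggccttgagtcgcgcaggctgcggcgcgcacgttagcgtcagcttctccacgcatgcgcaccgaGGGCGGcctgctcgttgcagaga
Arid4b: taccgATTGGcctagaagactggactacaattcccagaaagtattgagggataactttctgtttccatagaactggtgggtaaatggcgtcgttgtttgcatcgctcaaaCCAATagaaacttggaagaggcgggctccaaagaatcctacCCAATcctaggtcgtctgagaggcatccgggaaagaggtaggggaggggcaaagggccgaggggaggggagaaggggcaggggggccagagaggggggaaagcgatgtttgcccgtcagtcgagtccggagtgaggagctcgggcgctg
Smarcc1: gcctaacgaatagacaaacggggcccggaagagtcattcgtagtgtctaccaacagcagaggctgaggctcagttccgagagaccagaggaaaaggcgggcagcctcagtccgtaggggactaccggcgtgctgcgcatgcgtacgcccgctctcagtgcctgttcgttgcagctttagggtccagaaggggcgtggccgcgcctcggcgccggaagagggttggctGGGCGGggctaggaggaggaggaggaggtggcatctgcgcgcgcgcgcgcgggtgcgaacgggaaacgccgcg
Chd6: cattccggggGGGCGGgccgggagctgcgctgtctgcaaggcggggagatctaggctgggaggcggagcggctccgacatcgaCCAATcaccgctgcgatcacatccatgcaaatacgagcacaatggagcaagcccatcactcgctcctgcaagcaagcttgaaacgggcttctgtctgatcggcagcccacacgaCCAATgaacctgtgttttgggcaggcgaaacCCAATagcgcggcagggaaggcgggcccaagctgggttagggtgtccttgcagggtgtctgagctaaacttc

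The promoter of Smarcb1 held 3 GC boxes and 27 CpG dinucleotides, that of Arid4b 3 CCAAT boxes and 14 CpG. The promoter of Smarcc1 held 1 GC box and 33 CpG, and that of Chd6 had 1 GC box, 3 CCAAT boxes and 20 CpG. RefSeq listed 36 promoters for 29 of the 39 members, and 29 of these 36 (80.6%) held a GC box, against 61.6% of 14009 promoters of tested genes. A GC box stood in 10 of 12 promoters of members that rose and in 6 of 10 of members that fell. A CCAAT box stood in 5 of 12 and 5 of 10, against 38.1% of promoters of tested genes. TATAAA was in 2 of the 36, against 7.30%. GTAAGT, the consensus start of an intron that U1 pairs with, was in 1 (Chd9), against 5.38%. In Chd9 it stood on the strand opposite to the gene, so it was no splice site of the Chd9 transcript. These counts describe letters in a window and were not tested.

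After 5 h of auxin, the members moved both ways. Of 37 tested members, 13 rose, 8 fell and 16 did not pass. The test was the quasi-likelihood F-test of edgeR, with p-values adjusted by the Benjamini-Hochberg method over all 17344 tested genes and a threshold of 0.05. Over all tested genes 22.0% rose and 21.2% fell, beside 35.1% and 21.6% of the members. How these shares compare depends on the scaling, as given next. The members' median log2 fold change was 0.17, against -0.02 for all tested genes. On the TMM scale no member changed by as much as 2-fold, and log2 fold changes ran from -0.89 (Arid3b) to 0.88 (Ino80b). Under the scalings given next some members fell by more than 2-fold. Arid3b was at -1.16 with library totals and -1.73 with scaling to the mitochondrially encoded genes. In 35 of the 37 the libraries of the groups did not overlap, a larger share than the 73.5% of all tested genes. Members and all tested genes were not matched by level.

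No spike-in is described, so changes are relative to the other RNA of a library, and in bulk RNA fewer cells of a type and less RNA per cell cannot be told apart. With scaling to library totals the median of all genes was at -0.28, with 6 members higher (16.2%, against 13.2% of all tested genes) and 14 lower (37.8%, against 30.3%). With scaling to the mitochondrially encoded genes it was at -0.86, with 0 members higher (against 2.28% of all tested genes) and 25 lower (67.6%, against 51.2%). The members' median exceeded that of all genes by 0.19 on the log2 scale in each of these 3 scalings. A change of scaling shifts all genes by nearly the same amount, so this agreement follows from the method and adds no support. Actl6a, Arid4b, Chd4, Ino80e, Smarcb1 and Smarcd2 also passed as higher with library totals and none of them with mitochondrial scaling. Arid3b, Chd6, Chd9 and Smarcc1 passed as lower under all 11 alternative settings. Library totals and mitochondrial scaling both shift values downward, so they could remove rises but hardly falls and are no test of a fall. Of the 16 that did not pass with TMM, Arid1b, Chd3 and Smarcal1 were called lower with both of these scalings and in no other alternative, and Arid2, Arid5b, Chd7 and Smarcc2 with mitochondrial scaling alone. In the family accounts, rose and fell refer to the TMM scale.

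**Figure D1:**
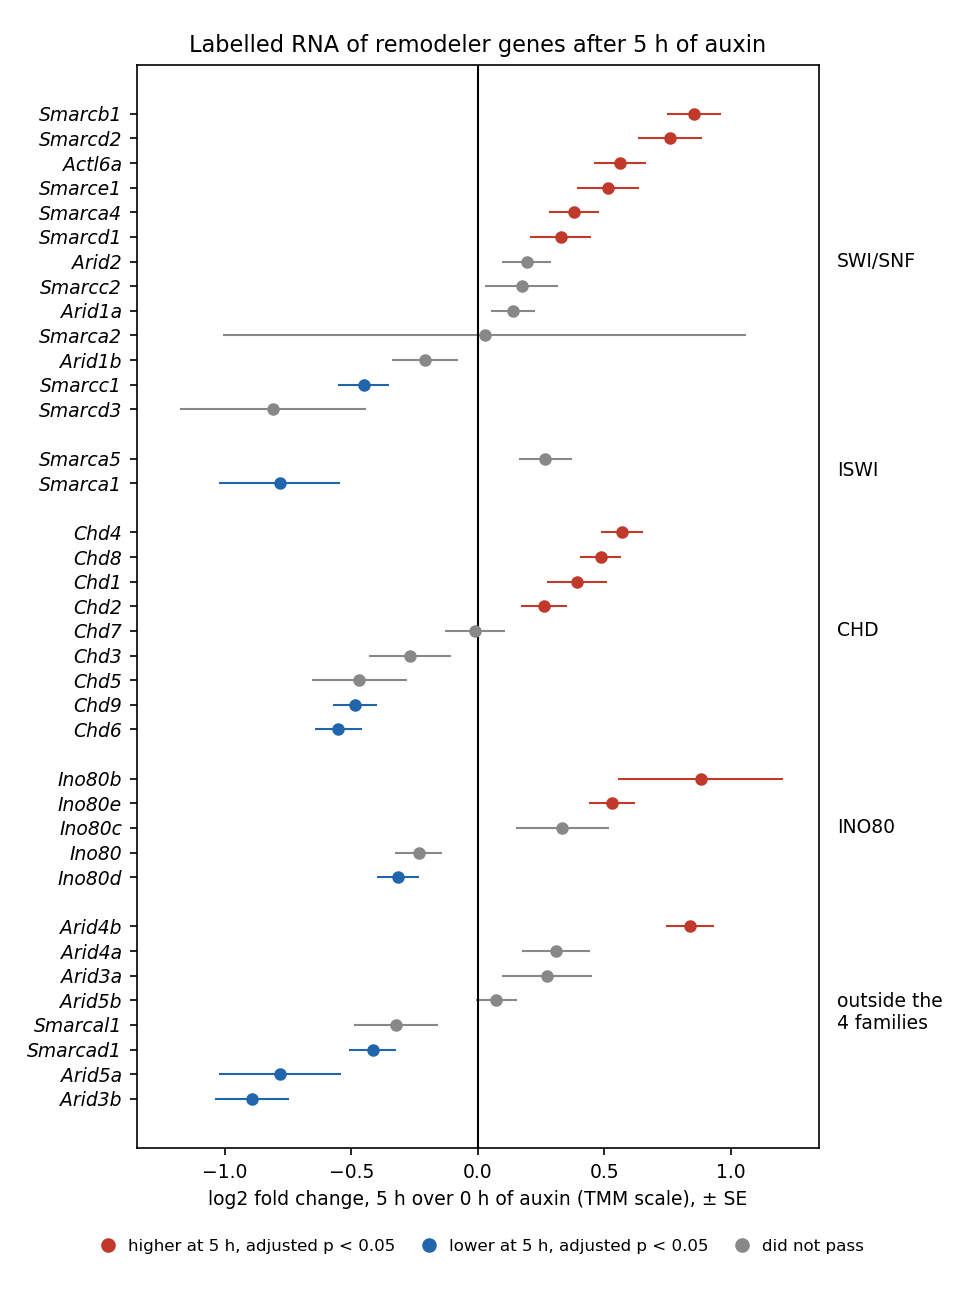
Log2 fold change of labelled RNA, 5 h over 0 h of auxin on the TMM scale, for the 37 tested members by family. Points are the fitted values and bars their standard errors (2 libraries a group). Red members were higher, blue ones lower and grey ones did not pass, and each family with at least 5 members has values on both sides of 0. With mitochondrial scaling no member was called higher.

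Within SWI/SNF, 6 of 13 tested genes rose, 1 fell and 6 did not pass. With library totals 3 were higher and 3 lower, and with mitochondrial scaling 0 and 8. Smarca4, which encodes the BRG1 ATPase of the stem cell complex, had 191 and 169 CPM at 5 h, against 137 and 139.7 CPM at 0 h, a log2 fold change of 0.38 ± 0.10 (SE) with adjusted p = 0.0101 by edgeR. Its 5 h libraries both lay above both 0 h libraries. The call was lost without 0 h replicate 1 (adjusted p = 0.0772) and without 0 h replicate 2 (adjusted p = 0.0807). Smarca2, which encodes the alternative ATPase BRM, had 4 and 15 counts at 5 h and 23 and 4 counts at 0 h. These are 0.276 and 1.62 CPM at 5 h and 1.18 and 0.509 CPM at 0 h. The lower library of each group, with 4 counts, lay close to the level of 3 counts, and no change could be read at this depth.

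The core subunits Smarcb1 and Smarce1 rose. Smarcb1, whose protein contacts the nucleosome's acidic patch and is lost in rhabdoid tumours in humans, lies on chromosome 10 from 75896769 to 75921614 (mm10). It had 154 and 136 CPM at 5 h, against 82.3 and 78.1 CPM at 0 h. Means were 145 ± 12.9 CPM at 5 h and 80.2 ± 2.95 CPM at 0 h (SD, n = 2 each), and the log2 fold change was 0.86 ± 0.11, or 1.81-fold (edgeR, adjusted p = 0.000156). Smarce1, a subunit with an HMG box that binds DNA, had 109.9 and 136 CPM at 5 h and 82.9 and 89.1 CPM at 0 h (log2 fold change 0.51 ± 0.12, edgeR adjusted p = 0.00633). The groups did not overlap for either gene.

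Smarcc1 went the other way. It encodes the scaffold that holds the core together in stem cells and lies on chromosome 9 from 110132024 to 110240178. Its labelled RNA had 188 and 161 CPM at 5 h, against 239 and 237 CPM at 0 h, with means of 174 ± 19.1 CPM at 5 h and 238 ± 1.34 CPM at 0 h (SD, n = 2 each). The log2 fold change was -0.45 ± 0.10 (edgeR, adjusted p = 0.00453). Both 5 h libraries lay below both 0 h libraries, and the call held in all 11 alternatives. The other scalings among these shift values downward and are no test of a fall. Its paralog Smarcc2 had 38.1 and 33.6 CPM at 5 h and 31.7 and 32.1 CPM at 0 h and did not pass (log2 fold change 0.17 ± 0.14, adjusted p = 0.361 by edgeR).

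The 3 Smarcd genes encode alternative accessory subunits that link the complex to transcription factors. Smarcd2, known for its role in granulocyte formation, had 63.2 and 71.9 CPM at 5 h, against 39.9 and 39.7 CPM at 0 h (log2 fold change 0.76 ± 0.13, edgeR adjusted p = 0.000830). Smarcd1, a form found in the stem cell complex, had 172 and 142 CPM at 5 h and 134 and 115 CPM at 0 h (0.33 ± 0.12, edgeR adjusted p = 0.0482), and reached adjusted p = 0.359 without 0 h replicate 2 and 0.170 without 5 h replicate 1. Smarcd3, the form of heart and neural cells, had 5.04 and 3.35 CPM at 5 h and 9.37 and 5.22 CPM at 0 h and did not pass (-0.81 ± 0.37, adjusted p = 0.101 by edgeR), but passed as lower in 5 of 11 alternatives. Its lower 0 h library lay close to its higher 5 h library, and its span overlaps the coding gene Chpf2.

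The actin-like subunit genes differed in level of detection. Actl6a, whose protein sits in BAF, INO80 and TIP60 complexes, rose to 127 and 133 CPM at 5 h, against 91.5 and 84.2 CPM at 0 h (log2 fold change 0.56 ± 0.10, edgeR adjusted p = 0.00139). Actl6b, which takes its place in neurons, had 3 and 0 counts at 5 h and 3 and 0 counts at 0 h and was not tested. None of the 3 large ARID subunit genes passed. Arid1a, of the canonical complex, had 843 and 746 CPM at 5 h and 733 and 709.9 CPM at 0 h (0.14 ± 0.09), but passed as higher without 5 h replicate 2 (log2 fold change 0.24, adjusted p = 0.0138 by edgeR), and as lower with mitochondrial scaling (-0.70, adjusted p = 0.00239). Arid1b, its paralog, had 41.4 and 44.5 CPM at 5 h and 52.3 and 46.6 CPM at 0 h (-0.21 ± 0.13). Arid2, of the polybromo form PBAF, had 162 and 172 CPM at 5 h and 139 and 153 CPM at 0 h (0.19 ± 0.10).

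**Figure D2:**
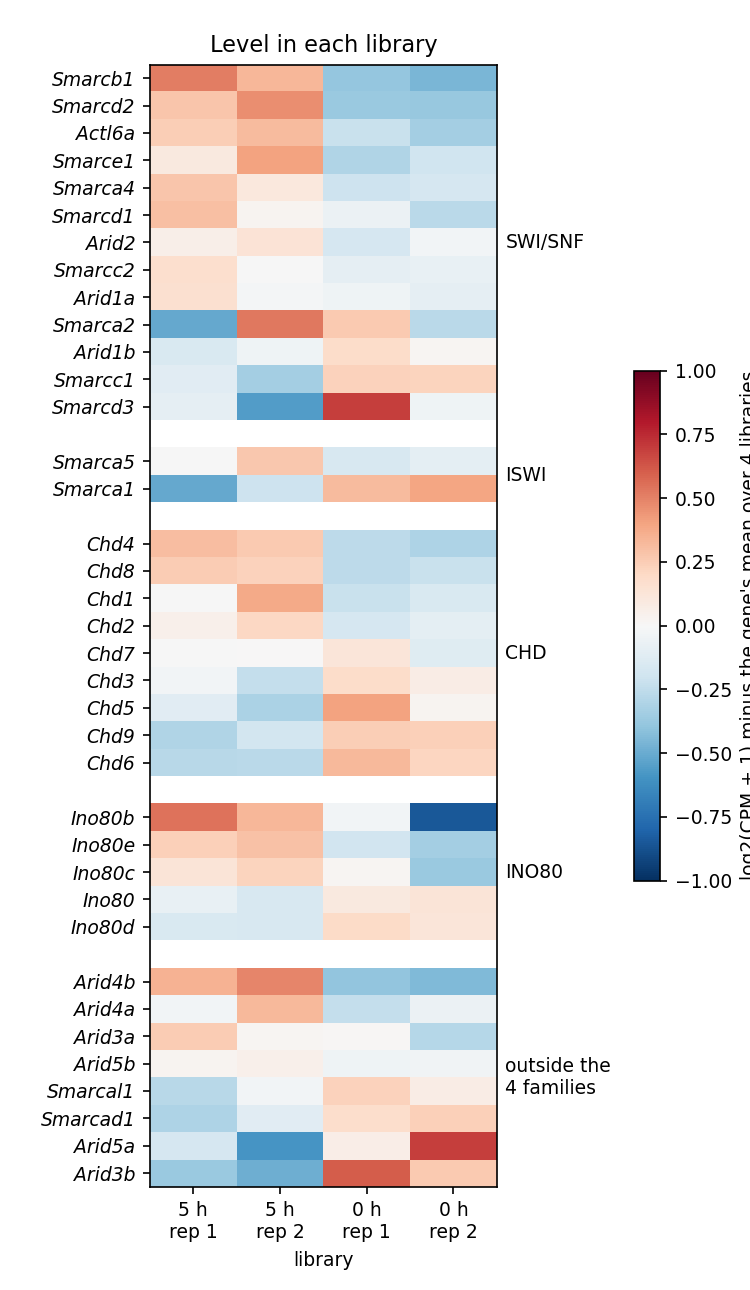
Level of each tested member in each library, as log2(CPM + 1) minus the gene's mean over the 4 libraries, with the 5 h libraries on the left. Smarcb1, Smarcd2, Chd4, Chd8 and Arid4b are red in both 5 h libraries and blue in both 0 h libraries, and Smarcc1, Chd6, Chd9 and Arid3b show the reverse. Smarca2, with 4 to 23 counts, varies without regard to group, and the groups of Chd7 also overlap.

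The ISWI ATPases slide and space nucleosomes. Smarca5, the widely used form, had 289 and 349 CPM at 5 h and 259 and 271 CPM at 0 h. Its log2 fold change of 0.27 ± 0.10 did not pass (edgeR, adjusted p = 0.0618), but passed as higher in 5 of 11 alternatives, among them the fit without 5 h replicate 1 (0.40, adjusted p = 0.000335). It passed as lower with mitochondrial scaling (-0.59, adjusted p = 0.00423) and was at -0.0024 with library totals. Smarca1, the form of neural and other differentiated cells, had 7.04 and 8.97 CPM at 5 h, against 13.3 and 14.1 CPM at 0 h. It fell by 0.78 on the log2 scale (SE 0.24, edgeR adjusted p = 0.0221). That call rested on 83 to 259 counts a library and was lost without 0 h replicate 1, 0 h replicate 2 or 5 h replicate 1 (adjusted p = 0.0565, 0.0989 and 0.0959) and with DESeq2 (adjusted p = 0.0789). The pseudogene Smarca5-ps had 23.3 and 28.1 CPM at 5 h and 14.8 and 14.6 CPM at 0 h, and how far its reads and those of Smarca5 were exchanged was not tested.

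Of the 9 CHD ATPases, 4 rose, 2 fell and 3 did not pass (1 and 4 with library totals, 0 and 7 with mitochondrial scaling). Chd4, the ATPase of the NuRD complex, had 733 and 706 CPM at 5 h, against 493 and 475 CPM at 0 h. Means were 719.6 ± 19.1 CPM at 5 h and 484 ± 12.9 CPM at 0 h (SD, n = 2 each), with a log2 fold change of 0.57 ± 0.08, or 1.49-fold (edgeR, adjusted p = 0.000346). Its alternatives in NuRD did not pass. Chd3 had 25.3 and 21.7 CPM at 5 h and 29.4 and 27.2 CPM at 0 h (-0.27 ± 0.16), and Chd5, a gene of neurons and testis, had 20.6 and 17.8 CPM at 5 h and 30.1 and 22.9 CPM at 0 h (-0.47 ± 0.19). Chd5 passed as lower in 6 of 11 alternatives.

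Chd8, a repressor of beta-catenin targets linked to autism in humans, had 539 and 528 CPM at 5 h, against 376 and 387 CPM at 0 h (log2 fold change 0.49 ± 0.08, edgeR adjusted p = 0.000895). Chd7, mutated in CHARGE syndrome in humans, had 76.2 and 77.0 CPM at 5 h and 83.5 and 70.2 CPM at 0 h, and the groups overlapped. Chd1, which follows RNA polymerase II and keeps stem cell chromatin open, had 326 and 425 CPM at 5 h, against 279 and 293 CPM at 0 h (0.39 ± 0.12, edgeR adjusted p = 0.0221). Its paralog Chd2 had 476 and 532 CPM at 5 h and 409 and 430.5 CPM at 0 h (0.26 ± 0.09, adjusted p = 0.0370 by edgeR). Neither was called without 0 h replicate 1, 0 h replicate 2 or 5 h replicate 2, where adjusted p was 0.0710, 0.0766 and 0.0718 for Chd1 and 0.271, 0.169 and 0.0663 for Chd2. The RefSeq span of Chd2 overlaps that of the non-coding gene Chaserr, and reads of the pair were not separated here.

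Chd6 and Chd9, large ATPases that have been studied less, fell. Chd6 had 149 and 149.8 CPM at 5 h, against 227 and 210.2 CPM at 0 h (log2 fold change -0.55 ± 0.09, edgeR adjusted p = 0.000866). Chd9 had 273 and 295 CPM at 5 h, against 399 and 396 CPM at 0 h (-0.49 ± 0.09, edgeR adjusted p = 0.00123). In both genes the 5 h libraries lay well below the 0 h libraries, and both calls held in all 11 alternatives. The other scalings among these shift values downward and are no test of a fall.

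INO80 complexes move nucleosomes at promoters and at stalled replication forks, and their 5 genes were also split, with 2 higher, 1 lower and 2 that did not pass (1 and 2 with library totals, 0 and 2 with mitochondrial scaling). The ATPase gene Ino80 had 139 and 131 CPM at 5 h and 157 and 161 CPM at 0 h and did not pass (log2 fold change -0.23 ± 0.09, adjusted p = 0.0682 by edgeR), but passed as lower in 6 of 11 alternatives. Ino80e had 333 and 345 CPM at 5 h, against 247 and 222 CPM at 0 h, and rose by 0.53 ± 0.09 on the log2 scale (edgeR, adjusted p = 0.00102). Its span overlaps the coding genes Hirip3 and Doc2a. Hirip3 had 58.6 and 66.5 CPM at 5 h and 70.5 and 67.3 CPM at 0 h and did not pass (log2 fold change -0.14, adjusted p = 0.363 by edgeR).

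Ino80b had 11.3 and 9.62 CPM at 5 h, against 7.26 and 3.69 CPM at 0 h (0.88 ± 0.33, edgeR adjusted p = 0.0498). It rested on 29 to 164 counts a library and was lost with DESeq2 (adjusted p = 0.0974), without 0 h replicate 2 (adjusted p = 0.277) and without 5 h replicate 1 (adjusted p = 0.113). Ino80c had 24.3 and 26.0 CPM at 5 h and 22.4 and 16.9 CPM at 0 h and did not pass. Ino80d had 429.9 and 428 CPM at 5 h, against 546 and 522 CPM at 0 h, and fell by 0.32 on the log2 scale (SE 0.08, edgeR adjusted p = 0.0103), a call lost without either 0 h library (adjusted p = 0.172 and 0.0885). The opposite-strand transcript Ino80dos had 19.1 and 24.0 CPM at 5 h and 13.2 and 13.6 CPM at 0 h. The strand setting of the counts was not given in the sources used here.

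Among the 9 genes outside the 4 families, 8 were tested, of which 1 rose and 3 fell (1 and 4 with library totals, 0 and 6 with mitochondrial scaling). Arid4b, a subunit of the Sin3 histone deacetylase complex, had 242 and 268 CPM at 5 h, against 145 and 139.8 CPM at 0 h. It had a log2 fold change of 0.84 ± 0.10, or 1.79-fold, and the lowest adjusted p of any member (edgeR, 8.99e-05). Its paralog Arid4a had 87.4 and 112 CPM at 5 h and 75.6 and 85.6 CPM at 0 h and did not pass (0.31 ± 0.14). It passed as higher with the replicate block (adjusted p = 0.0329 by edgeR) and without 5 h replicate 1 (adjusted p = 0.000378), and as lower with mitochondrial scaling (-0.56, adjusted p = 0.0174). Arid3b, an AT-rich DNA binding factor, had 39.9 and 36.7 CPM at 5 h, against 79.5 and 62.4 CPM at 0 h, and fell to 0.538 of its 0 h level (log2 fold change -0.89 ± 0.15, edgeR adjusted p = 0.000702). Its relative Arid3a had 29.1 and 24.6 CPM at 5 h and 24.4 and 19.7 CPM at 0 h and did not pass. Arid3c had 0 counts in both 5 h libraries and 3 and 2 counts at 0 h and was not tested.

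Arid5a, known in immune cells as an RNA-binding stabiliser of cytokine transcripts, had 17.8 and 13.1 CPM at 5 h, against 21.2 and 33.2 CPM at 0 h (-0.78 ± 0.24, edgeR adjusted p = 0.0236), and reached adjusted p = 0.243 without 0 h replicate 2 and 0.122 without 5 h replicate 2. Arid5b, a partner of a histone demethylase, had 577 and 586 CPM at 5 h and 551 and 554 CPM at 0 h and did not pass. Smarcad1, a SNF2 ATPase of heterochromatin upkeep and DNA end resection, had 458 and 524 CPM at 5 h, against 641 and 669 CPM at 0 h (-0.42 ± 0.09, edgeR adjusted p = 0.00429), a call lost without 0 h replicate 2 (adjusted p = 0.0690). Smarcal1, which anneals DNA at stalled forks, had 21.2 and 25.4 CPM at 5 h and 30.6 and 27.2 CPM at 0 h and did not pass.

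Ratios of members within a library do not depend on how libraries are scaled to each other, so they show unequal change directly. The size of a ratio depends on transcript length, and only its change between groups is read. With 2 libraries a group an exact permutation test cannot go below p = 0.333, so the values carry no test. Smarcc1 had 4.93 and 4.78 counts for each count of Smarcc2 at 5 h, against 7.55 and 7.40 at 0 h. Chd4 had 29.0 and 32.5 counts for each of Chd3 at 5 h, against 16.8 and 17.5 at 0 h. Smarca5 had 41.0 and 38.9 counts for each of Smarca1 at 5 h, against 19.4 and 19.2 at 0 h. In all 3 pairs the change between groups was larger than the difference between the libraries of a group.

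In some other listed pairs the groups did not overlap either. Smarcd1 to Smarcd3 was 34.1 and 42.3 at 5 h and 14.3 and 22.1 at 0 h. Chd8 to Chd7 was 7.07 and 6.86 at 5 h and 4.50 and 5.50 at 0 h. Smarcd1 to Smarcd2 was 2.72 and 1.97 at 5 h and 3.35 and 2.90 at 0 h. Arid1a to Arid1b was 20.4 and 16.7 at 5 h and 14.0 and 15.2 at 0 h. In the pairs given next the groups were close. Arid1a to Arid2 was 5.20 and 4.35 at 5 h and 5.27 and 4.64 at 0 h, and Ino80, the ATPase, to Ino80d, a noncatalytic subunit, was 0.323 and 0.306 at 5 h and 0.288 and 0.308 at 0 h, with overlapping groups. Chd1 to Chd2 was 0.685 and 0.800 at 5 h and 0.681 and 0.680 at 0 h, so 1 of the 5 h libraries lay at the 0 h value. The remaining listed pairs rest on few counts of Smarca2 or Actl6b. Smarca4 to Smarca2 was 690 and 104 at 5 h and 115 and 274.5 at 0 h, with overlapping groups. Actl6a to Actl6b could not be formed in the replicate 2 libraries, where Actl6b had 0 counts. Further pairs were chosen after their values were seen, so their shifts were known beforehand. For Smarcb1 to Smarcc1, subunits of 1 core, the ratio was 0.822 and 0.847 at 5 h, against 0.344 and 0.329 at 0 h, a 2.48-fold change. Chd4 to Chd9 was 2.69 and 2.39 at 5 h, against 1.24 and 1.20 at 0 h, and Ino80e to Ino80d was 0.774 and 0.805 at 5 h, against 0.451 and 0.425 at 0 h.

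**Figure D3:**
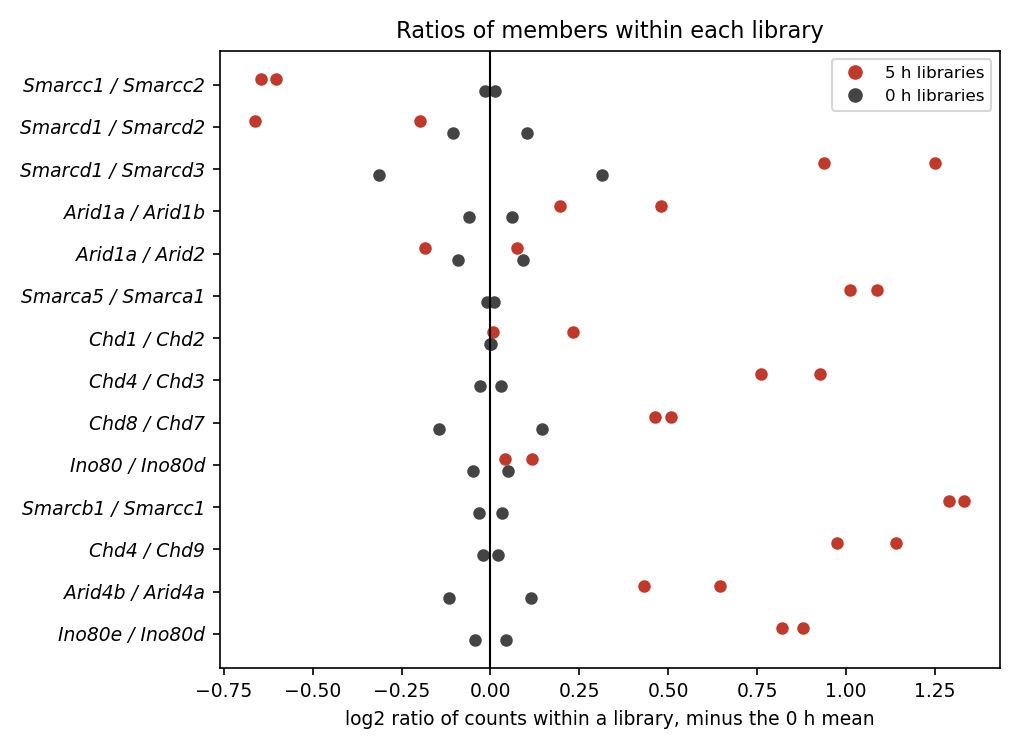
Log2 ratio of the counts of 2 members within each library, minus the mean of the 0 h libraries. The listed pairs with Smarca2 or Actl6b are not drawn. Red points are the 5 h libraries and dark points the 0 h libraries of each pair. The 5 h points of the listed pair Smarca5 / Smarca1 lie over 1 log2 unit to the right of 0, and the mean of Smarcc1 / Smarcc2 lies at -0.62. Those of Smarcb1 / Smarcc1 also lie over 1 log2 unit to the right. Smarcb1 / Smarcc1, Chd4 / Chd9, Arid4b / Arid4a and Ino80e / Ino80d were chosen after their values were seen, so their shifts were known beforehand. The 5 h points of Arid1a / Arid2 and Ino80 / Ino80d overlap the 0 h points.

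Gene span, from the RefSeq start to end, was set beside the changes because the U1 snRNP is known to protect long genes. The members are long, with a median span of 66.5 kb against 19.3 kb for tested genes with a span. Spans of members ran from 3.36 kb (Ino80b) to 353 kb (Arid1b). Across the 37 members Spearman's rho between span and log2 fold change was -0.400, and across 15033 tested genes it was -0.297. Genes share libraries and are not replicates, so these are descriptions.

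Of the 37 members 25 had a log2 fold change above the median of all tested genes in their span class. The 9 members of 50 to 100 kb had a median of 0.14 against -0.28 for 1927 genes of that class, and 3 rose and 3 fell, where 16.3% of the class rose and 36.2% fell. The 12 members over 100 kb had a median of -0.11 against -0.29 for 1711 genes. Of these 12, Arid4b (136 kb) and Chd2 (115 kb) rose and Chd6 (162 kb), Chd9 (226 kb) and Smarcc1 (108 kb) fell, where 9.29% of the class rose and 29.7% fell. Arid4b stood 1.13 log2 units above its class median and Smarcb1, at 24.8 kb, 1.07 above. Relative to its class median Arid5a, at 16.3 kb, stood at -0.78 and Arid3b, at 46.5 kb, at -0.68.

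**Figure D4:**
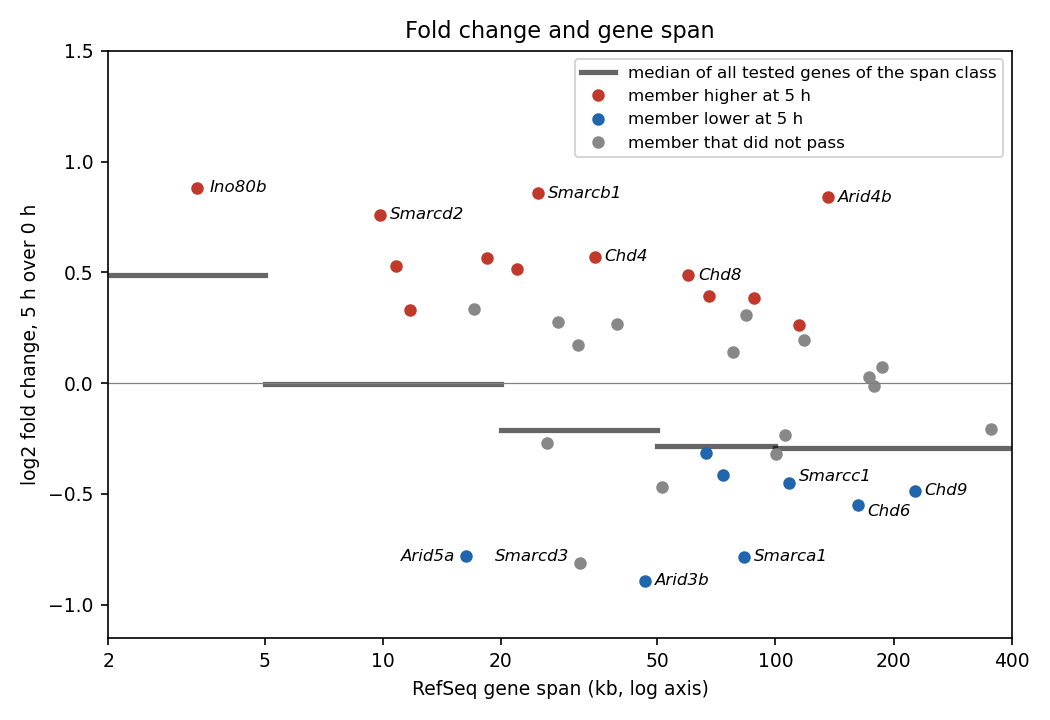
Log2 fold change on the TMM scale against RefSeq gene span (log axis) for the 37 tested members, with the median of all tested genes of each span class as a horizontal bar. Arid4b and Smarcb1 lie furthest above the bar of their class, and Arid5a and Arid3b furthest below.

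The partner proteins of these ATPases were counted from lists of 75 genes that carry other symbols, of which 74 were tested, 26 rose (35.1%) and 17 fell (23.0%), beside 22.0% and 21.2% of all tested genes. Of 15 tested SWI/SNF partners 3 rose and 6 fell, with a median of -0.29 (1 and 7 with library totals, 0 and 11 with mitochondrial scaling). Bcl7a, a small BAF subunit, had 31.3 and 33.9 CPM at 5 h, against 83.2 and 81.3 CPM at 0 h (log2 fold change -1.34 ± 0.12, edgeR adjusted p = 3.29e-05). Pbrm1, the polybromo subunit that defines PBAF, had 86.6 and 113 CPM at 5 h, against 196 and 188 CPM at 0 h (-0.95 ± 0.13, adjusted p = 0.000220 by edgeR). Brd9, the bromodomain subunit of noncanonical BAF, had 75.6 and 73.6 CPM at 5 h, against 35.6 and 39.2 CPM at 0 h (1.00 ± 0.12, edgeR adjusted p = 0.000141). The groups were clearly apart for all 3. With mitochondrial scaling Brd9 was at 0.16 and no partner of this list was called higher.

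Among 13 subunits listed for the stem cell BAF complex (8 of them members) 8 rose and 2 (Smarcc1 and Phf10) fell, and of 6 tested subunits typical of other cell types 1 (Ss18l1) fell and 5 did not pass. With library totals these counts were 4 and 2 for the stem cell form and 0 and 3 for the alternative one, and with mitochondrial scaling 0 and 7 and 0 and 4. Over all tested genes 22.0% rose and 21.2% fell with TMM, 13.2% and 30.3% with library totals, and 2.28% and 51.2% with mitochondrial scaling. The difference between the lists was not tested, and the counts depend on which subunits are listed and on depth. The lists were chosen with earlier results of these data known. Brd9, of noncanonical BAF, and Bicra are among the 8 that rose (log2 fold changes of 1.00 and 0.51). Among the alternative subunits Smarca2 had 4 to 23 counts a library and Smarcd3 31 to 182, which limits calls, while Arid1b had 366 to 1016. Bcl7a, Bcl7b, Bicral and Pbrm1, which stand in neither list, all fell (log2 fold changes of -1.34, -0.80, -0.29 and -0.95), and Smarcd2, also known from granulocytes, is counted with the stem cell form. The highest log2 fold change among the 6 alternative subunits was 0.36 (Dpf1), which did not pass.

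Of 11 ISWI partners 5 rose and 1 fell with a median of 0.31 (4 and 3 with library totals, 0 and 5 with mitochondrial scaling). Baz1b, of the WICH complex, had 767 and 783 CPM at 5 h, against 444 and 441 CPM at 0 h (log2 fold change 0.81 ± 0.08, edgeR adjusted p = 4.88e-05), Baz2a, of the NoRC complex that silences ribosomal DNA, rose by 0.84 ± 0.09, and Rsf1, a histone chaperone subunit, by 0.87 ± 0.09. With mitochondrial scaling these were at -0.04, -0.00 and 0.02. Of 12 NuRD partners 7 rose and 2 fell with a median of 0.39 (4 and 3 with library totals, 0 and 5 with mitochondrial scaling). Mta2 had 306 and 295 CPM at 5 h, against 151 and 169 CPM at 0 h (0.91 ± 0.10, edgeR adjusted p = 6.04e-05). The alternative subunits Mta1 and Mta3 went the other way. Mta1 had 11.9 and 9.40 CPM at 5 h, against 30.9 and 29.8 CPM at 0 h (-1.50 ± 0.19, edgeR adjusted p = 0.000157), and Mta3 changed by -0.84 ± 0.13. Mta3 lay outside the naming rule and was chosen after its value was seen, and Gatad2b, a zinc finger subunit that the rule takes, rose by 0.55 ± 0.08.

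Of 26 partners in INO80, SRCAP and TIP60 9 rose and 4 fell with a median of 0.04 (7 and 9 with library totals, 0 and 14 with mitochondrial scaling). Yy1, a zinc finger protein that recruits INO80, had 481 and 526 CPM at 5 h, against 237 and 221 CPM at 0 h (log2 fold change 1.14 ± 0.09, edgeR adjusted p = 1.77e-05). Actr5, an actin-related subunit specific to INO80, rose by 1.33 ± 0.15 and Nfrkb, a subunit known in human INO80, by 0.83 ± 0.09. With mitochondrial scaling these 3 were at 0.28, 0.49 and -0.01. Of 12 other SNF2 ATPases 2 rose and 4 fell with a median of 0.02 (1 and 5 with library totals, 0 and 11 with mitochondrial scaling). Ttf2, which removes RNA polymerase II from mitotic chromosomes, had 45.3 and 47.8 CPM at 5 h, against 104 and 114 CPM at 0 h (-1.22 ± 0.11, edgeR adjusted p = 3.45e-05), and Zranb3 and Rad54l, which act at stalled forks and in recombination, changed by -1.31 ± 0.13 and -0.70 ± 0.11.

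**Figure D5:**
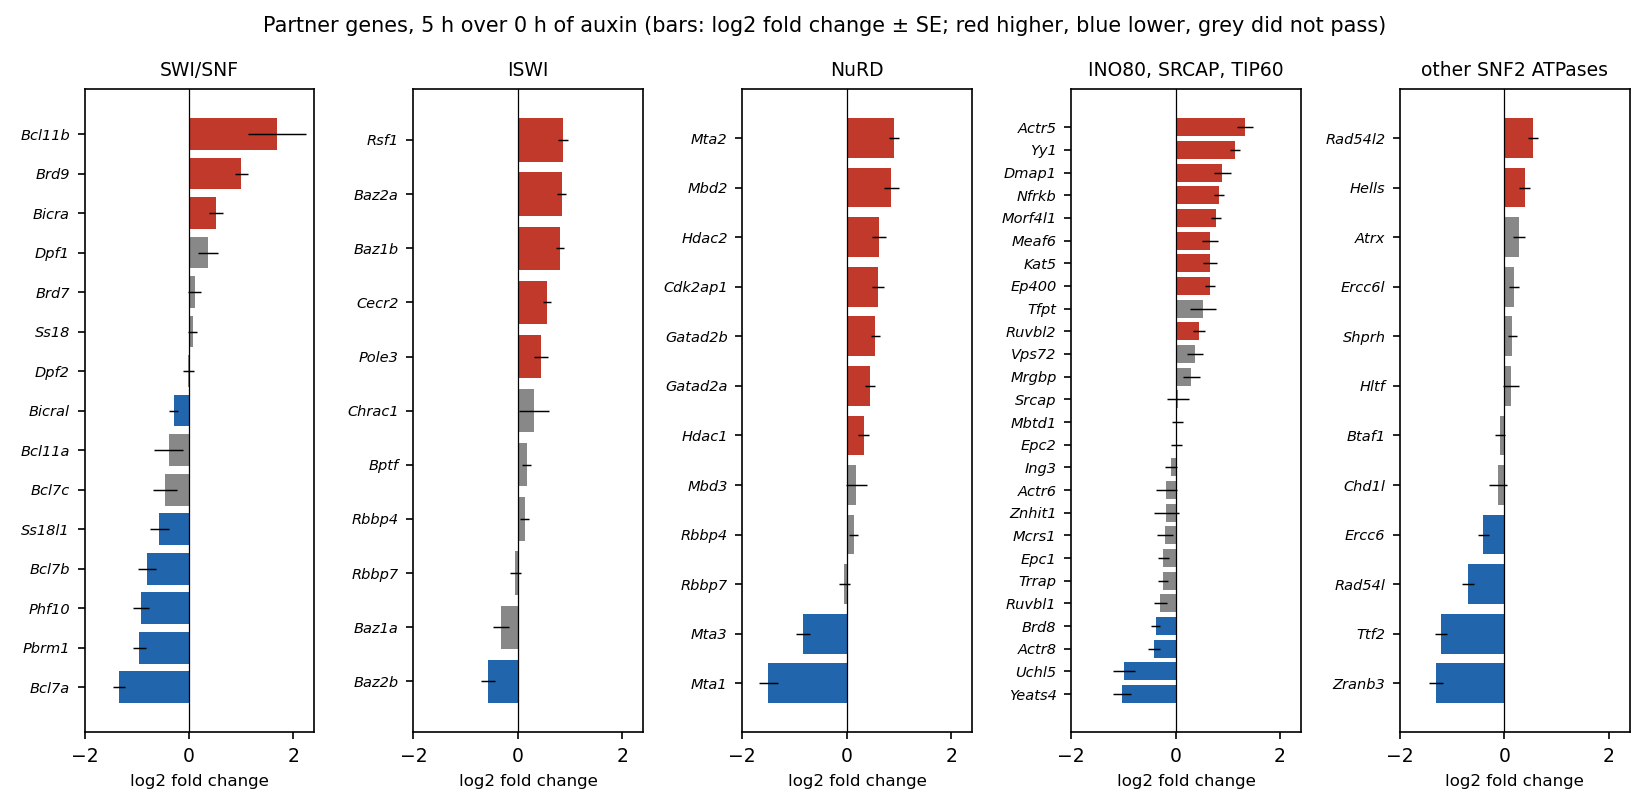
Log2 fold change, 5 h over 0 h, of the tested partner genes of each list (bars, with standard errors, 2 libraries a group, TMM scale). Red genes were higher, blue ones lower and grey ones did not pass. Bcl11b (1.69 ± 0.55) rests on 71 and 56 counts at 5 h and 49 and 4 counts at 0 h and was not called with library totals (adjusted p = 0.0664). The longest bar downward is Mta1 (-1.50), and with mitochondrial scaling no partner was called higher.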

How the data were processed

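The deposited table gave 1 estimated count per gene and library in whole numbers, not normalised per the file headers and values. The submitters' processing notes name HISAT2 2.2.1, StringTie 2.2.1, DESeq2 1.42.0 and mm10 without roles. The annotation and strand setting are not given in the sources used here. Counts derived from coverage can exceed independent reads, so counts divided by 4 were an alternative.

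The 4 libraries were fitted in R 4.3.3 with edgeR 4.0.16 (quasi-likelihood test, robust, TMM, filterByExpr with a minimum count of 10, no covariate, limma 3.58.1 loaded). P-values were adjusted by Benjamini-Hochberg over all 17344 tested genes, with a threshold of 0.05. The SE is the absolute log2 fold change divided by the square root of F. The script was tested on simulated data.

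Members and lists were chosen with earlier results of these data known. All members are named, with the 3 partner genes of lowest adjusted p per list. Bcl7b, Bcl11b, Bicral, Dpf1, Mta3, Phf10 and Ss18l1 were named after their values were seen. Spans and promoters came from RefSeq (GRCm38.p6), which held all 39 members. Motifs were searched on both strands: the GC box GGGCGG, the CCAAT box, the TATA motif TATAAA, the splice site motif GTAAGT and the E-box CACGTG. The E-box was in 1 of 36 member promoters, against 9.89% of promoters of tested genes.

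The replicate 1 libraries of both groups deviated from their group means with a correlation of 0.0739 across tested genes. With 2 libraries a group, replicate 2 gives the same value by construction. Same-numbered libraries were therefore not treated as paired. Alternatives were DESeq2, library totals, mitochondrial scaling, no filter, a stricter filter (1 CPM and 30 counts), divided counts, the replicate block and leaving out each library. Floors of 3 counts cover counting error only, while the SE also takes in the spread between these libraries.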

Additional observations from a re-analysis of the deposited data

How the results depend on the processing

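With TMM, 3814 genes were higher and 3677 lower at 5 h. With library totals 2297 genes were higher and 5257 lower, with 6 and 14 members, with a member median of -0.092. With mitochondrial scaling 396 genes were higher and 8872 lower, with 0 and 25 members and a median of -0.66. These settings move the median of all genes to -0.28 and -0.86. Leaving out 1 library gave 2721 to 3765 genes higher and 2609 to 3834 lower, 8 to 13 members higher and 5 to 10 lower, and a member median of 0.14 to 0.17. The lowest counts of members, 8 and 5, were those without 0 h replicate 2. With the replicate block 15 members were higher and 10 lower, with a median of 0.17. DESeq2 called 13 and 7 members, no filter 14 and 8, the stricter filter 13 and 10, and counts divided by 4 gave 14 and 11.

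Of 21 calls, 12 held in all 9 alternatives other than the scalings, and the 4 falls among them in all 11. Both scalings shift values downward, so they could remove rises but hardly falls. With library totals the log2 fold change turned below 0 for Arid1a (-0.13), Smarca2 (-0.25), Smarca5 (-0.0024), Arid2 (-0.075), Chd2 (-0.0059), Arid5b (-0.19) and Smarcc2 (-0.092). With mitochondrial scaling it did so for Chd4 (-0.27), Ino80c (-0.50), Arid1a (-0.70), Smarca2 (-0.88), Chd8 (-0.36), Arid3a (-0.55), Smarca5 (-0.59), Arid4a (-0.56), Smarca4 (-0.46), Smarce1 (-0.35), Arid2 (-0.66), Chd2 (-0.59), Actl6a (-0.28), Ino80e (-0.32), Chd1 (-0.47), Smarcd2 (-0.093), Arid5b (-0.77), Smarcc2 (-0.66), Smarcd1 (-0.50) and Arid4b (-0.013). Smarca2 was at -0.23 with the replicate block, and Chd7 at 0.000678 with DESeq2. Without 1 library Chd7 ran from -0.13 to 0.13 and Smarca2 from -1.62 to 0.86. The scalings differ by their own construction, and the cause of the other changes was not tested. Depth limits Smarca2, Actl6b and Arid3c, which had at most 23 counts in any library.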
